A study of Homo sapiens with 6 samples.

Results

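Clear cell renal carcinoma is a richly vascular tumour, and the secreted factors examined here are among the signals through which such cells act on blood vessels, lymphatic vessels and lipid handling. The set was chosen by name. It holds 4 genes of the vascular endothelial growth factor family (VEGFA, VEGFB, VEGFC and PGF), the lipase inhibitor gene ANGPTL4, the vasodilator peptide gene ADM and the stanniocalcin genes STC1 and STC2, which makes 8 of the 61541 genes listed. All 8 identifiers were found. The choice was made with the values of this same contrast known, so levels and differences of these 8 genes are given as descriptions and without a test.

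The cells were RCC4, an established human line of that tumour type, known to lack a working VHL protein. Poly(A) RNA from 3 untreated cultures and from 3 cultures exposed for 24 h to IFNγ at 1000 U/mL together with TNF at 25 ng/mL was read molecule by molecule by direct RNA nanopore sequencing. Each biological replicate pooled 3 flasks of this 1 line. The labels do not say whether the replicates were grown on separate days, so the spread between them may be partly technical.

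Without VHL, the oxygen-regulated subunits of hypoxia-inducible factor (HIF) are not degraded, and HIF can drive VEGFA, ANGPTL4 and ADM transcription in air as well. The sample titles name RCC4 and give no VHL status, and these libraries measure neither VHL protein nor HIF activity. VEGFA signals through KDR and FLT1 on endothelial cells, VEGFB and PGF through FLT1, and VEGFC mainly through FLT4 on lymphatic endothelium. The neuropilins NRP1 and NRP2 act as co-receptors. ANGPTL4 inhibits lipoprotein lipase, adrenomedullin acts through CALCRL paired with a RAMP protein, and the stanniocalcins are glycoprotein hormones linked to calcium and phosphate handling.

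Library totals ran from 3626000 to 4406296 counts. Levels are given in CPM, a count scaled to the library, on library sizes normalised by the trimmed mean of M-values (TMM). On that scale 3 counts, the limit that a count of 0 allows, came to between 0.674 and 0.862 CPM, a limit for counting error alone. The labelled cell type was checked against its markers: all 10 renal epithelial and clear cell carcinoma markers, among them PAX8, CA9 and NDUFA4L2, had more than 3 counts in every library. Their levels were not all alike between the groups. PAX8 fell from 144.8 ± 16.4 to 83.7 ± 11.5 CPM (SD, n = 3 each; edgeR adjusted p 0.0316). VIM rose from 4594 ± 309 to 7279 ± 903 CPM (edgeR adjusted p 0.0273). Both were named after their values were seen, and the other markers of this list did not pass the threshold. Of the 7 endothelial markers 6 had 0 counts in all 6 libraries (PECAM1, CDH5, VWF, TEK, KDR and CLDN5), and of the 6 leukocyte markers 5 did, PTPRC among them. CD68, another of those 5, shares 81.6% of its exonic bases with other genes on its strand. The part of this in its count was not tested. Of the 6 fibroblast and pericyte markers 3 had more than 3 counts in every library, and LUM and DCN had 0 in all. Their summed level was 63.5 to 78.6 CPM in untreated and 30.7 to 53.7 CPM in treated libraries. PDGFRB, named after its values were seen, fell from 10.3 ± 0.863 to 2.71 ± 0.126 CPM (SD, n = 3 each; edgeR adjusted p 0.00491). The part of these markers in the values of the 8 genes was not tested. Untreated replicate 3 stood apart from untreated replicates 1 and 2 on the second principal component of all genes, with a score of -49.5 against 35.3 and 7.30.

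Promoter sequences are shown for the 3 members with the highest treated-to-untreated ratios of those found in the promoter table, and for STC2, whose groups overlapped. They come from RefSeq on GRCh38.p14, where 6 of the 8 members had an entry. Each runs 5′ to 3′ on the gene's strand through bases just before the RefSeq start, without bases that the deposited Ensembl annotation counts as exonic. The ANGPTL4 stretch lies inside the gene as the Ensembl annotation draws it, from base 8363289 on. Capitals mark ACGTG or GCGTG, the core of the hypoxia response element, read on either strand. ANGPTL4 is at chr19:8363905-8364154 (plus strand), ADM at chr11:10304823-10305072 (plus strand), VEGFC at chr4:176792923-176793172 (minus strand) and STC2 at chr5:173328448-173328664 (minus strand).
ANGPTL4: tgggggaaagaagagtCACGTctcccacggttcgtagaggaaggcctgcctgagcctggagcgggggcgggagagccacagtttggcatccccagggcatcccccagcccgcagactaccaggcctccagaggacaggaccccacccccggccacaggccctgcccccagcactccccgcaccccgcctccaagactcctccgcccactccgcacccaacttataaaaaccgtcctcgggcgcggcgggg
ADM: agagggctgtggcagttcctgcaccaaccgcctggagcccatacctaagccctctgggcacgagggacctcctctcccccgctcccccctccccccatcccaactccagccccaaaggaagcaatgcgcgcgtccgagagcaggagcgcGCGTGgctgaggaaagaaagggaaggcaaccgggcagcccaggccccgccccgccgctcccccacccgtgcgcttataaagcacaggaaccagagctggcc
VEGFC: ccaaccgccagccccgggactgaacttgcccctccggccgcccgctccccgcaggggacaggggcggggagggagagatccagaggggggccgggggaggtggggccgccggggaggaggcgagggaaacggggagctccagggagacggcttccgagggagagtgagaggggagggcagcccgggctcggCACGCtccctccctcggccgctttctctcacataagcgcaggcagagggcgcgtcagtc
STC2: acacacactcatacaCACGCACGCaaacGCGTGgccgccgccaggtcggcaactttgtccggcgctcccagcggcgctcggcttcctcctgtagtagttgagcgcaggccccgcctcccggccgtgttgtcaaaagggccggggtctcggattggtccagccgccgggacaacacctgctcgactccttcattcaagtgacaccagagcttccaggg

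The core was found in the 250 bases before a start of each of the 6 members with an entry, in 1 of the 2 entries of PGF, and in 43.2% of all 35116 promoters searched the same way. ANGPTL4 held ACGTG on the opposite strand, between 234 and 230 bases before its start. ADM held GCGTG on its own strand between 101 and 97 bases before it, and VEGFC held GCGTG on the opposite strand between 59 and 55 bases before it. STC2 held 3 matches, a pair of which share 1 base. The kappaB consensus, searched on both strands, was found in VEGFC alone of the 6 and in 9.96% of all promoters. The interferon gamma activated sequence (TTC, any 3 bases, GAA), present in 6.57% of all promoters, and the direct repeat of AGGTCA spaced by 1 base, present in 0.0171%, had no match in these windows. A match describes letters in a window and does not show binding.

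Among the 4 VEGF family genes, VEGFA and VEGFC stood higher in cytokine-treated cells, VEGFB did not separate the groups, and PGF was barely detected. VEGFA (ENSG00000112715; GRCh38 chromosome 6, 43770184 to 43786487, plus strand), the main angiogenic ligand of the family, had 21.1, 24.4 and 17.9 CPM in untreated replicates 1, 2 and 3 and 51.2, 60.7 and 76.9 CPM in treated ones. The lowest treated library exceeded the highest untreated library. The log2 fold change of VEGFA was 1.57 (SE 0.23), a ratio of 2.97. These values rest on 79 to 95 counts per untreated library and 178 to 271 per treated library, summed over all transcripts of the gene, so splice forms of VEGFA are not told apart.

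VEGFC (ENSG00000150630; chromosome 4, 176683538 to 176792922, minus strand), the lymphangiogenic ligand, had 19.3, 16.2 and 10.7 CPM in untreated libraries and 63.5, 57.3 and 60.5 CPM in treated ones. The treated replicates of VEGFC lay close together, at 60.4 ± 3.12 CPM against 15.4 ± 4.37 CPM untreated (SD, n = 3 each). Its log2 fold change was 1.98 (SE 0.25), and the lowest treated library was well above the highest untreated one. In bulk RNA, a change in the share of cells that express a gene and a change in RNA per cell cannot be told apart, here or for the other members.

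VEGFB (ENSG00000173511; chromosome 11, 64234584 to 64239264, plus strand), a family member with a weaker angiogenic role, had 109.7, 80.0 and 107.0 CPM untreated and 117.0, 84.7 and 163.5 CPM treated. Its groups overlapped, with treated replicate 2 below untreated replicates 1 and 3. The log2 fold change was 0.30 (SE 0.26), smaller than the SD of its log2 CPM within groups, 0.38. PGF (ENSG00000119630; chromosome 14, 74941834 to 74955626), which encodes placental growth factor, had 1 count in all 6 libraries together, in untreated replicate 3. No fold is given for PGF, because both groups lay under the limit of 3 counts.

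The ratios between family members differed with them. VEGFB RNA exceeded VEGFA RNA by 5.20, 3.27 and 5.97 times in untreated replicates 1, 2 and 3 on the CPM scale, and by 2.29, 1.40 and 2.13 times in treated ones. The ratio VEGFB to VEGFC went from 5.69, 4.94 and 10.0 to 1.84, 1.48 and 2.70. Neither set of ratios overlapped between the groups. VEGFC over VEGFA was 0.914, 0.663 and 0.595 untreated and 1.24, 0.944 and 0.786 treated, and these overlapped.

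**Figure D1:**
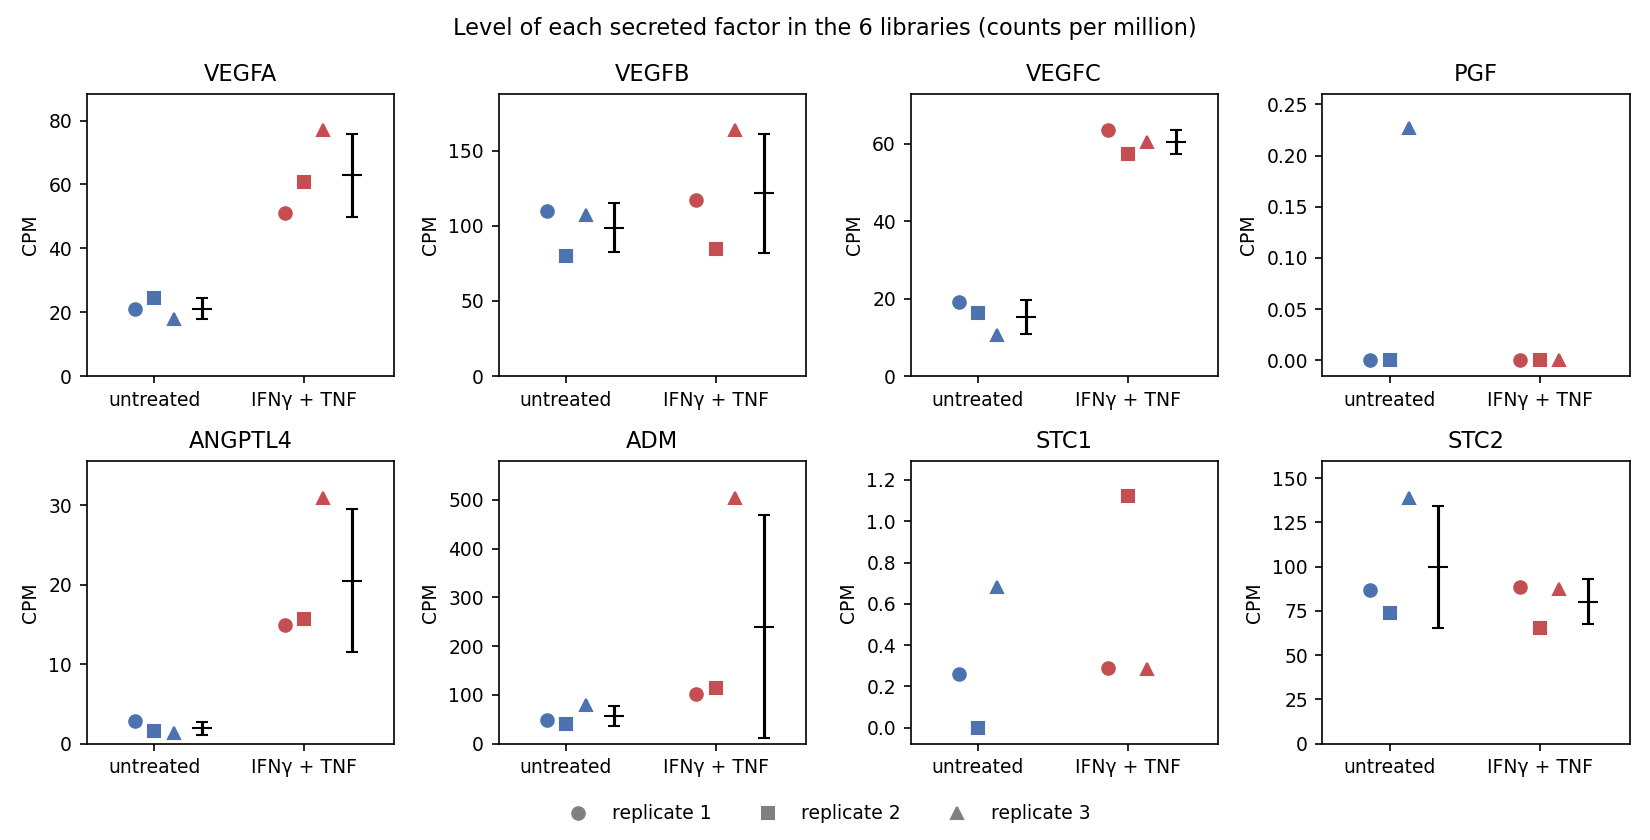
Level of each of the 8 secreted factors in CPM (vertical axes, linear, scaled per gene) in 3 untreated (blue) and 3 IFNγ and TNF treated (red) libraries. Symbols give the replicate number, and black bars the mean ± SD (n = 3), left out for PGF and STC1, which had 1 and 11 counts in all. For VEGFA, VEGFC, ANGPTL4 and ADM every treated library lies above every untreated one.

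ANGPTL4 had the largest difference of the 8, and ADM the widest spread among treated replicates. ANGPTL4 (ENSG00000167772; chromosome 19, 8363289 to 8374370, plus strand) had 11, 6 and 6 counts in untreated replicates 1, 2 and 3 and 52, 70 and 109 in treated ones, or 2.87, 1.54 and 1.36 against 14.9, 15.7 and 30.9 CPM. The groups did not overlap, and treated replicate 3 was 1.97 times the middle treated library. The log2 fold change of ANGPTL4 was 3.40 (SE 0.44), a ratio of 10.6, set against untreated counts low enough that counting error alone is large.

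ADM (ENSG00000148926; chromosome 11, 10305073 to 10307397, plus strand), the adrenomedullin gene, had 48.5, 40.7 and 80.0 CPM in untreated libraries and 101.2, 115.0 and 503.8 CPM in treated ones. All treated libraries lay above all untreated ones, but treated replicate 3, with 1775 counts, was 4.38 times the middle treated library. The log2 fold change of ADM was 2.09 (SE 0.60) with all libraries and 0.95 (SE 0.30) without treated replicate 3. The same library was also the highest treated library for VEGFA, VEGFB and ANGPTL4, that is for 4 of the 6 members fitted. NDUFA4L2, a HIF target that encodes a mitochondrial protein, was at 157.8, 134.8 and 333.2 CPM in treated replicates 1, 2 and 3, and EPAS1, the gene of HIF-2α, at 48.3, 49.4 and 93.7 CPM (EPAS1 was chosen after its values were seen). LOX, another HIF target, was at 69.8, 81.8 and 54.5 CPM in treated replicates 1, 2 and 3, and LDHA at 2625, 2917 and 2536 CPM. Both were thus lowest in treated replicate 3. Untreated replicate 3 was the highest untreated library for ADM, for NDUFA4L2 (184.9 CPM) and for EPAS1 (134.2 CPM). It was the lowest untreated library for VEGFA, VEGFC and ANGPTL4. The part of the other differences of treated replicate 3 in the ADM value was not tested.

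STC2 (ENSG00000113739; chromosome 5, 173314723 to 173328447, minus strand) had 86.8, 74.1 and 138.9 CPM untreated and 88.5, 65.4 and 87.1 CPM treated. Its groups overlapped, and untreated replicate 3 was the highest of the 6 libraries. The log2 fold change of STC2 was -0.32 (SE 0.26), and -0.010 without untreated replicate 3. STC1 (ENSG00000159167; chromosome 8, 23841929 to 23854806) was counted 1, 0 and 3 times in untreated replicates and 1, 5 and 1 times in treated ones. That depth gives no usable fold for STC1, and the 2 stanniocalcin genes thus differed widely in abundance, with 2140 and 11 counts in all for STC2 and STC1.

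In the edgeR quasi-likelihood fit over all 10067 genes that passed the filter on low counts, 6 of the 8 members were fitted and PGF and STC1 were not. Of these 6, 3 (VEGFA, VEGFC and ANGPTL4) had a Benjamini-Hochberg adjusted p under 0.05 and a positive log2 fold change, beside 5.58% of all genes fitted. The treated group lay wholly above the untreated group in 4 of the 6 (the same genes and ADM), beside 13.9% of all genes fitted. Because the genes were chosen with this contrast known, nothing is read from these counts.

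Leaving out 1 library at a time moved the log2 fold change of VEGFA between 1.41 and 1.71, of VEGFC between 1.76 and 2.19 and of ANGPTL4 between 2.99 and 3.82. VEGFB ran from 0.034 to 0.56 and STC2 from -0.49 to -0.010. ADM, from 0.95 to 2.48, had the widest range of the 6. Scaling to library totals in place of TMM moved the median over all genes from -0.03 to -0.13, and gave 1.48 for VEGFA, 1.88 for VEGFC, 3.31 for ANGPTL4, 1.97 for ADM, 0.19 for VEGFB and -0.45 for STC2, each lower by about that shift.

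**Figure D2:**
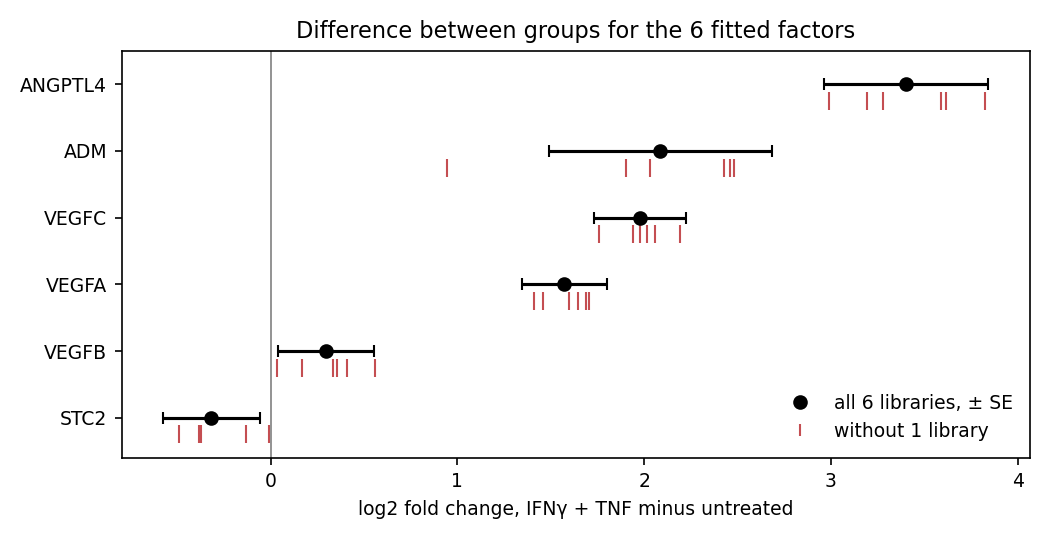
Log2 fold change (horizontal axis; treated minus untreated) of the 6 fitted secreted factors with all 6 libraries (black points, ± SE) and with each library left out in turn (red ticks). ANGPTL4 is at 3.40, ADM at 2.09, VEGFC at 1.98, VEGFA at 1.57, VEGFB at 0.30 and STC2 at -0.32, and ADM falls to 0.95 without treated replicate 3.

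Summed over the 8 genes, the level was 288.4, 237.0 and 356.7 CPM in untreated replicates and 436.5, 399.9 and 923.1 CPM in treated ones. Without ADM the sums were 240.0, 196.3 and 276.7 CPM against 335.4, 284.8 and 419.2 CPM. VEGFB and STC2 made up most of the sum in untreated cells, at 33.9% ± 4.02 and 33.4% ± 4.81 (SD, n = 3). In treated cells their shares were 21.9% ± 4.58 and 15.4% ± 5.49. ADM took 16.8%, 17.2% and 22.4% of the sum in untreated replicates and 23.2%, 28.8% and 54.6% in treated ones. ANGPTL4, at 0.675% ± 0.307 untreated, reached 3.57% ± 0.317 treated (SD, n = 3 each).

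**Figure D3:**
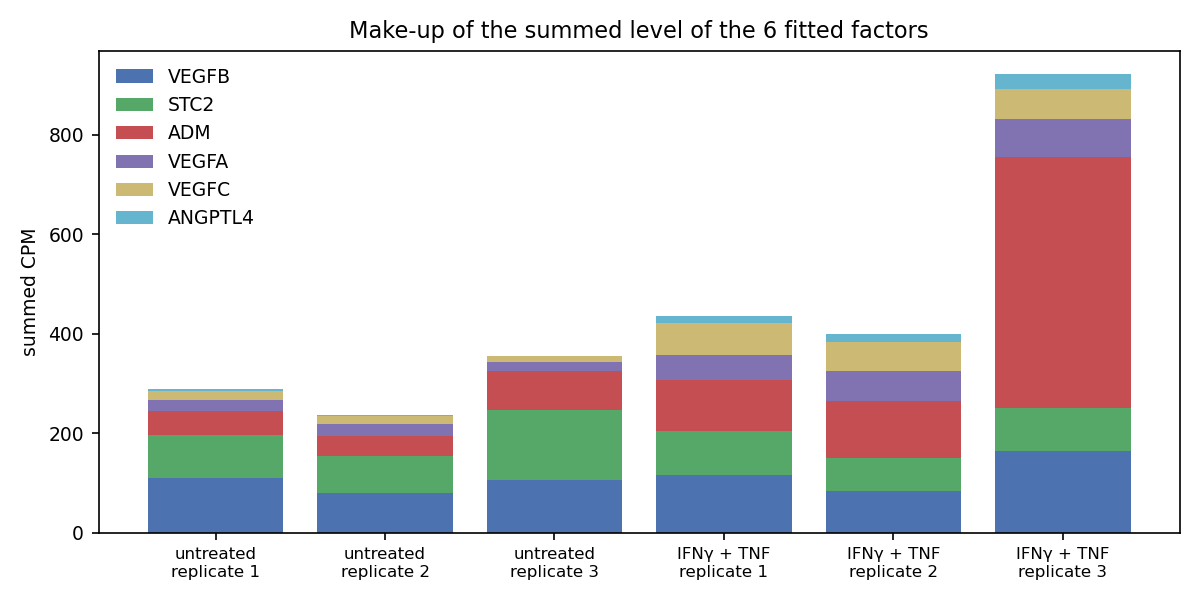
Summed CPM (vertical axis) of the 6 fitted secreted factors in each library, split by gene. VEGFB and STC2 fill most of each untreated bar, and ADM fills 54.6% of the bar of treated replicate 3.

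Levels of different genes were set against each other per kilobase of exonic length. Reads were taken molecule by molecule, so counts need not grow with that length, and CPM is the scale closer to numbers of molecules. In untreated cells VEGFB came first at 50.2 ± 8.33 CPM per kilobase, followed by ADM at 24.2 ± 8.96, STC2 at 19.7 ± 6.79, VEGFC at 5.88 ± 1.67, VEGFA at 1.47 ± 0.227 and ANGPTL4 at 0.777 ± 0.332 (SD, n = 3 each). ADM and STC2 overlapped in that order, and the other neighbours did not. In treated cells ADM came first at 103.2 ± 98.3 CPM per kilobase, followed by VEGFB at 61.8 ± 20.1, VEGFC at 23.1 ± 1.19, STC2 at 15.9 ± 2.57, ANGPTL4 at 8.30 ± 3.64 and VEGFA at 4.36 ± 0.903. ADM and VEGFB overlapped there, and again the other neighbours did not. Only with this division did VEGFC stand below STC2 in untreated and above it in treated libraries, and ANGPTL4 below VEGFA and then above it. In CPM, without division by length, VEGFC was below STC2 and ANGPTL4 below VEGFA in all 6 libraries. The annotation gives VEGFA 14431 exonic bases, more than direct RNA reads, which start at the 3′ end, need to cover. Without division by length VEGFA ranked 4 over the 6 libraries, above VEGFC and ANGPTL4. None of the 8 genes shares exonic bases with another gene on its strand.

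Genes with profiles like those of VEGFA and ANGPTL4 were ranked by the root mean square difference of centred log2 CPM over the 6 libraries. The 6738 candidates averaged 10 CPM or more, and members were left out. The nearest genes lie below the median by construction, so the median gives only the scale. The difference between the groups is part of each profile. The nearest to VEGFA were PANX1 (0.0784), SP140L (0.125) and DENND2B (0.148), where the median gene was at 0.849. PANX1, which encodes a membrane channel, had 12.2, 13.1 and 10.2 CPM untreated and 29.0, 32.8 and 38.3 CPM treated. The nearest to ANGPTL4 were CD83 (0.252), MAFF (0.254) and IL4I1 (0.287), where the median gene was at 1.62. CD83, an immune cell surface gene, had 19.8, 21.1 and 12.0 CPM untreated and 127.0, 124.7 and 234.7 CPM treated. Between members the closest pairs were VEGFA with VEGFC, at 0.340, and VEGFB with STC2, at 0.381.

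Receptors for these ligands were largely undetected in this tumour line, and the co-receptor NRP2 rose. This gene list and those that follow were, like the members, chosen with earlier results of these data known. Their counts past the threshold are therefore not independent of the choice, and nothing is read from them beside the shares of all genes fitted. The adjusted p values of listed genes are given as descriptions. Of 10 receptor and co-receptor genes 2 were fitted, both with positive log2 fold changes, and 6 had at most 3 counts in every library. FLT1 and KDR had 0 counts in all 6 libraries. NRP2 rose from 30.5, 39.4 and 19.3 to 83.6, 83.1 and 93.4 CPM (log2 fold change 1.55, SE 0.26, edgeR adjusted p 0.00622), beside 8.14% of all genes fitted that passed the threshold in either direction. NRP1, the other co-receptor, named after its values were seen, had 21.6, 19.8 and 34.0 CPM untreated and 33.9, 46.9 and 42.3 CPM treated, and the groups overlapped (log2 fold change 0.71, SE 0.26, edgeR adjusted p 0.163). It passed the threshold without untreated replicate 3 and with a block on replicate number. Among the 12 angiopoietins, other angiopoietin-like genes and their receptors TEK and TIE1, 11 had at most 3 counts in every library and 9 had 0 in all. The exception, ANGPT4, also named after its values were seen, had 1, 0 and 0 counts untreated and 2, 2 and 8 treated.

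Around the lipase axis on which ANGPTL4 acts, 6 of 11 genes were fitted and 1 fell, beside 2.55% of all genes fitted, with a median log2 fold change of -0.15 against -0.03 over all genes. LIPC, the hepatic lipase gene, fell from 19.3, 22.4 and 20.6 to 4.89, 5.62 and 2.55 CPM (log2 fold change -2.23, SE 0.32, edgeR adjusted p 0.00263). LPL and LIPG, the genes of lipoprotein and endothelial lipase, had 0 counts in all 6 libraries. The lipid droplet gene PLIN2 and the fatty acid oxidation gene ACADVL differed by -0.046 (SE 0.32) and -0.064 (SE 0.17) on the log2 scale, and both signs turned when certain single libraries were left out.

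Of 26 other angiogenic secreted factors 13 were fitted, 1 rose and 1 fell, beside 5.58% and 2.55% of all genes fitted, and the median log2 fold change was -0.34. MDK, the midkine gene, had 1, 1 and 2 counts untreated and 23, 20 and 32 treated, which is at least 9.04-fold higher against 3 counts per library (edgeR adjusted p 0.00133). IGFBP3, a secreted binder of insulin-like growth factors, fell from 1607 ± 718 to 500.8 ± 254.9 CPM (SD, n = 3 each). Its log2 fold change was -1.68 (SE 0.40) with an edgeR adjusted p of 0.0329. Untreated replicate 3 held 10730 of its counts, against 4296 and 4938 in the other untreated libraries. IGFBP3 did not pass without untreated replicate 2 (edgeR adjusted p 0.0605), treated replicate 1 (0.0979) or treated replicate 2 (0.146), and its adjusted p ran from 5.4e-11 to 0.146 over 13 alternatives. TGFB1 and CCN1, both abundant, differed by -0.59 (SE 0.20) and -0.39 (SE 0.28) on the log2 scale, and neither passed (edgeR adjusted p 0.129 and 0.521). With a block on replicate number TGFB1 passed.

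Of 14 angiogenesis inhibitors 5 were fitted and 1 rose, beside 5.58% of all genes fitted, with a median log2 fold change of -0.43. SEMA3F, a secreted semaphorin that binds NRP2, rose from 17.7, 18.8 and 14.3 to 88.2, 68.5 and 81.7 CPM (log2 fold change 2.23, SE 0.21, edgeR adjusted p 0.000216). NRP2 and its ligand SEMA3F both stood higher in every treated library than in any untreated one, beside 13.9% of all genes fitted. Each was the only gene of its list past the threshold, so they are set together by that choice, and a link between them was not tested. The matricellular genes THBS1 and SPARC differed by -0.43 (SE 0.37) and -0.67 (SE 0.21) on the log2 scale and did not pass (edgeR adjusted p 0.634 and 0.0983). SPARC passed without untreated replicate 3, with library totals and with a block on replicate number. THBS1 passed with that block.

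HIF was examined because it drives several of these factors. Of 13 HIF subunits and regulators 10 were fitted and 1 fell, beside 2.55% of all genes fitted, with a median log2 fold change of -0.02. CITED2, which competes with HIF for the coactivators CREBBP and EP300, fell from 746.7, 706.5 and 615.3 to 153.2, 143.8 and 86.3 CPM (log2 fold change -2.43, SE 0.24, edgeR adjusted p 0.000301). EPAS1 and HIF1A, named after their values were seen, differed by -0.29 (SE 0.43) and 0.50 (SE 0.47) on the log2 scale. VHL RNA was at 228.3 ± 86.6 CPM untreated and 495.7 ± 168.3 CPM treated (SD, n = 3 each). Its log2 fold change was 1.12 (SE 0.34) with an edgeR adjusted p of 0.0907, and 3 of 13 alternatives passed it.

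Of 16 further targets of HIF, most of them intracellular or on the cell surface, 14 were fitted and 1 rose, beside 5.58% of all genes fitted. Their median log2 fold change was 0.17. LOX, the gene of the secreted enzyme lysyl oxidase, rose from 20.8, 22.1 and 36.7 to 69.8, 81.8 and 54.5 CPM (log2 fold change 1.37, SE 0.27, edgeR adjusted p 0.0146). It did not pass without untreated replicate 2 (edgeR adjusted p 0.0777), nor without treated replicate 2, where it lay just above the threshold, in a range from 4.58e-06 to 0.0777 over 13 alternatives. SLC2A1, the glucose transporter gene, was at 583.5 ± 22.5 CPM untreated and 396.2 ± 77.2 CPM treated (SD, n = 3 each). Its log2 fold change was -0.56 (SE 0.18) with an edgeR adjusted p of 0.115. SLC2A1 passed with library totals and with a block on replicate number.

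Other abundant HIF targets did not pass the threshold. The glycolytic genes LDHA, PGK1 and ENO1 showed -0.14 (SE 0.14), 0.075 (SE 0.15) and 0.27 (SE 0.23) as log2 fold changes. BNIP3, a mitophagy gene, showed 0.062 (SE 0.17), and NDUFA4L2 showed 0.70 (SE 0.38), with an edgeR adjusted p of 0.363. For NDUFA4L2 it was 0.0248 when all genes with any count were tested, and 0.0129 with a block on replicate number. PGK1 and BNIP3 turned negative with library totals. CA9, a surface marker of clear cell carcinoma named after its values were seen, was at 38.5 ± 7.55 CPM untreated and 38.0 ± 6.95 CPM treated (SD, n = 3 each; log2 fold change -0.023, SE 0.23). No test compared these genes with VEGFA, VEGFC, ANGPTL4 and ADM as a group. NDRG1, EGLN1 and EGLN2, with at most 22 counts in a library, share 75.3%, 95.4% and 67.8% of their last 1000 exonic bases with other genes on their strand, and the part of this in their counts was not tested.

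**Figure D4:**
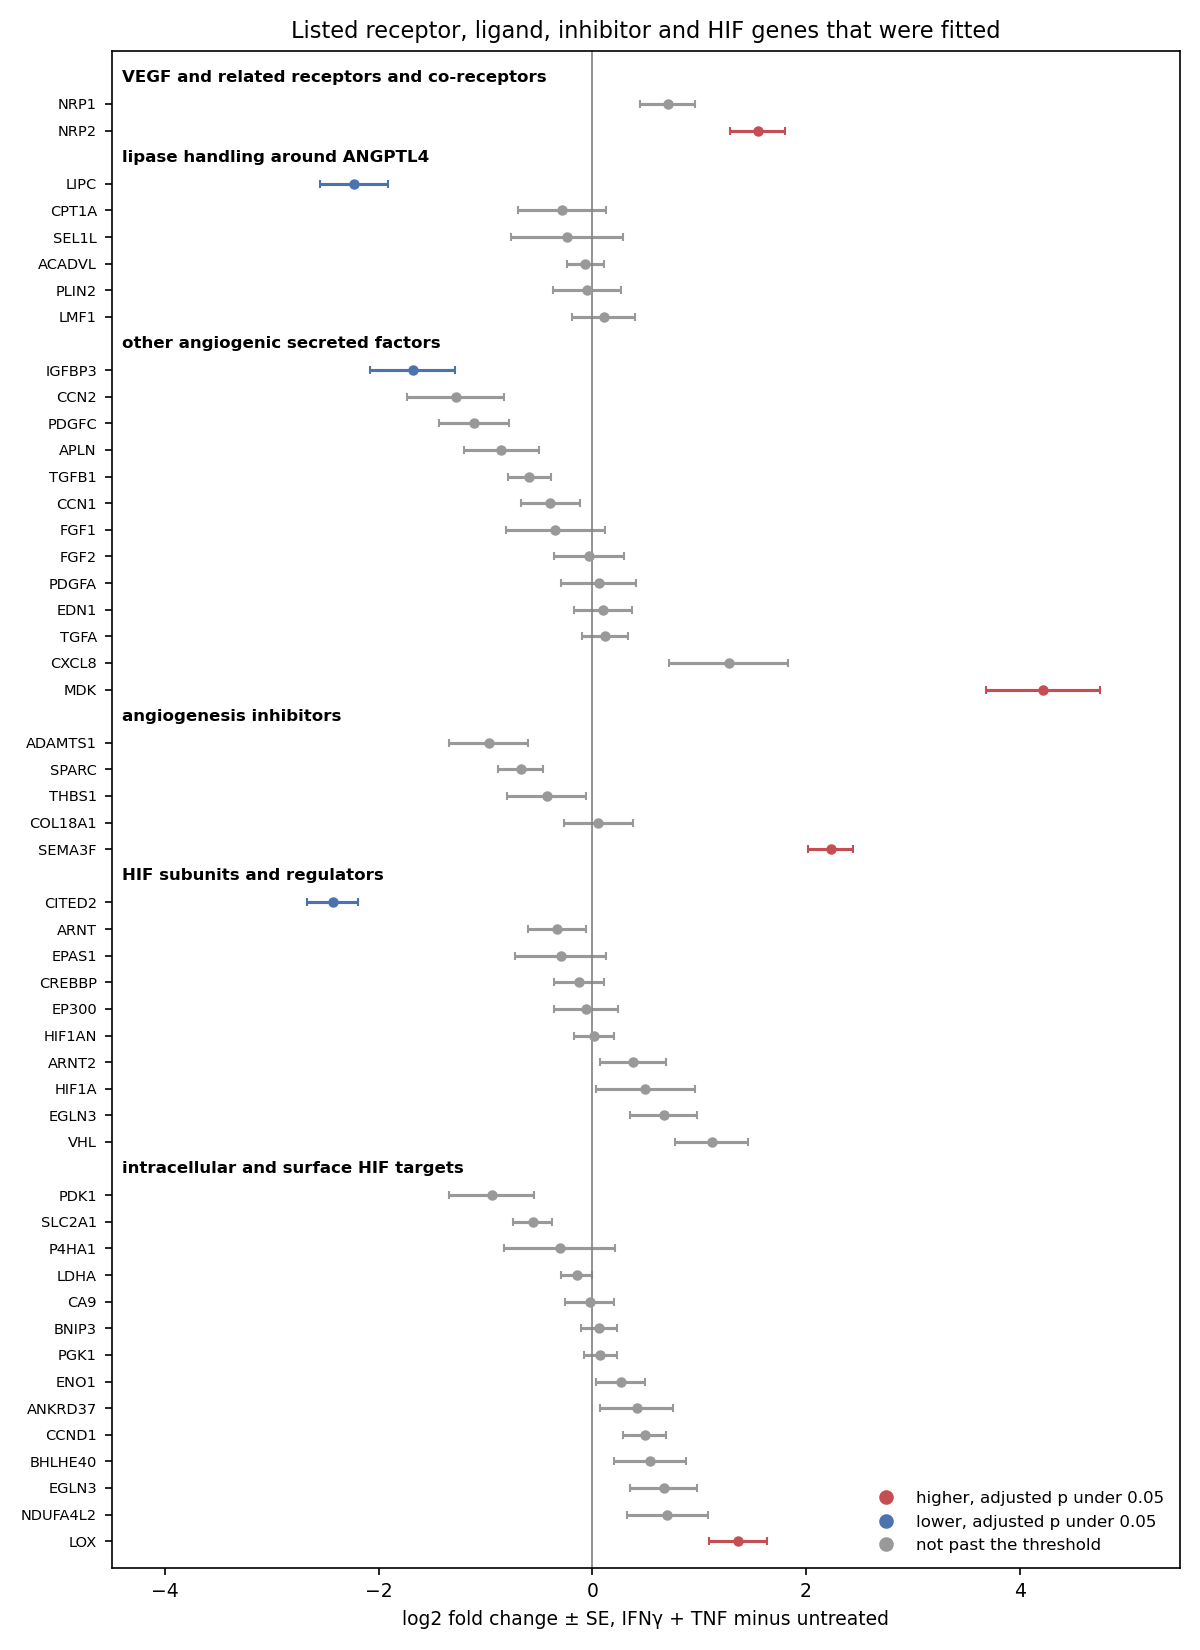
Log2 fold change ± SE (horizontal axis; treated minus untreated) of the fitted genes in 6 of the 7 lists, with genes past an edgeR adjusted p of 0.05 in red (higher) or blue (lower) and others in grey. NRP2, MDK, SEMA3F and LOX are the red points, and LIPC, IGFBP3 and CITED2 the blue ones.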

How the data were processed

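The authors deposited raw counts of reads for each gene from featureCounts 2.0.1, run in long-read mode with strand-specific counting on exons of Ensembl release 105 (GRCh38), per the file headers. The submitters' processing notes name minimap2 2.24, SAMtools 1.16 and featureCounts 2.0.0. Alignment names in the headers carry the word dmso, and groups were taken from the sample titles. Libraries came from 500 ng of poly(A) RNA, per the labels. They were read for 72 h and reads of quality above 7 were kept, per the series' design text. Of 61541 identifiers 61369 had a symbol.

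Groups were compared with edgeR 4.0.16 in R 4.3.3 (quasi-likelihood test, TMM, filterByExpr, Benjamini-Hochberg adjustment over all genes, threshold 0.05). The SE was taken as the size of the log2 fold change over the root of its F statistic. The method was tested on simulated counts. Members and the 7 lists were chosen with earlier results of these data known. Genes named by rule are the members, listed genes past the threshold or with a mean of at least 100 CPM, and the 3 profiles nearest to VEGFA and to ANGPTL4. Named outside this rule were cell type markers, undetected or scarce genes such as FLT1, LPL and NDRG1, and those marked as named after their values were seen. The 13 alternatives were DESeq2 size factors, library totals, 2 filters (at least 1 count in all, or 10 counts in 3 libraries), a replicate block, the tests of DESeq2 1.42.0 and limma 3.58.1 (voom), and leaving out each of the 6 libraries.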

Additional observations from a re-analysis of the deposited data

How the results depend on the processing

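Over all genes, 819 passed the threshold, 562 higher and 257 lower. Testing all genes that had any count gave 1328, and the replicate block gave 1512. Leaving out 1 library gave from 455 (without treated replicate 3) to 1178 (without untreated replicate 3), and 465 without untreated replicate 2. With library totals the split was 489 higher and 363 lower. Same-numbered libraries had correlations of deviations of 0.651, -0.0037 and 0.374, and not every library correlated best with its own number. Deviations from the mean of 3 libraries are tied to each other, so these values cannot settle whether the numbers are pairs. The main fit did not take the numbers as pairs. With the replicate block, calls were 2 for receptors, 6 for other secreted factors, 4 for inhibitors, 2 for HIF regulators and 3 for HIF targets. Of the named genes TGFB1, THBS1, SPARC, VHL, SLC2A1 and NDUFA4L2 passed the threshold with the block and not in the edgeR fit by group alone (edgeR adjusted p 0.0385, 0.0467, 0.00344, 1.52e-05, 0.0191 and 0.0129). The same held for NRP1. With every gene tested, calls were 5, 2, 2 and 2 for the last 4 lists. DESeq2 gave 4 secreted factors and 2 HIF regulators, and library totals 2 inhibitors and 2 HIF targets. Without 1 library the counts ran from 1 to 2 (receptors), 1 to 3 (other secreted factors), 1 to 2 (inhibitors) and 0 to 1 (HIF targets). The causes were not tested. The log2 fold change of ADM ran from 0.95 to 2.48 without 1 library. ADM passed the threshold in 4 of 13 alternatives, the replicate block among them, and not in the edgeR fit by group with all libraries. Without division by length VEGFA ranked 4, VEGFC 5 and ANGPTL4 6 in level, and with it 6, 4 and 5. Signs turned for 4 genes. Without 1 library PLIN2 ran from -0.45 to 0.23 (0.16 and 0.15 without treated replicate 1 or 2), ACADVL from -0.12 to 0.098, PGK1 from -0.0093 to 0.19 and BNIP3 from -0.0058 to 0.13. With library totals PGK1 was -0.027 and BNIP3 -0.040. For the 20 listed genes followed, 235 of 260 values kept their direction and side of the threshold. Depth limited ANGPTL4 in untreated cells, MDK, STC1 and PGF.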
